A study of Mus musculus with 24 samples.

Results

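Bone of wild-type and HSD2OB-tg female mice was compared at 6 months of age, on 3 arrays of each genotype. The arrays were chosen by the age and genotype in their titles, and they are 6 of the 24 arrays of the series. RNA came from tibia and femur, and marrow had been flushed from the tibia before isolation, per the labels' protocols. The groups were wild-type females at 6 months, with no transgene, and HSD2OB-tg females of the same age. The latter carry a transgene that expresses 11-beta hydroxysteroid dehydrogenase type 2 in cells of the osteoblast lineage. In the published line a fragment of the type I collagen promoter drives the transgene, so that osteoblasts and osteocytes express it. The line is meant to leave the circulating hormone and the other cells of bone as they are, which was not tested here. The design text speaks of biological triplicates without saying whether an array stands for 1 animal, and p-values below refer to the spread among such arrays. The other 18 arrays, 6 each at 3, 12 and 18 months, entered the fit to estimate the spread and served for the comparison between ages.

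Glucocorticoids, in mice mainly corticosterone, enter cells freely and bind the glucocorticoid receptor, which then acts on the promoters and enhancers of its target genes. The enzyme 11-beta hydroxysteroid dehydrogenase type 2 turns the active hormone into an inactive form, and the type 1 enzyme works the other way. In bone, a large excess of the hormone slows osteoblasts and lengthens the life of osteoclasts, whereas the natural level supports the maturing of osteoblasts. The 6 month comparison therefore asks what bone tissue expresses when its osteoblast lineage cells are shielded from their own hormone in young adult life.

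Values were log2, so that a difference of 1 is a doubling, and the median gene had a mean of 4.34 over all arrays. All 6 arrays were alike over the 22180 genes, with correlations of 0.974 to 0.991 between pairs. The source names of the samples begin with a code prefix whose meaning the labels do not give, and this prefix was unevenly spread at 6 months. Wild-type replicates 1 and 3 and transgenic replicate 3 carried HEN753, and wild-type replicate 2 and transgenic replicates 1 and 2 carried HEN513. Arrays did not overlap between the prefixes for 3848 genes (17.3%) and did not overlap between the genotypes for 1778 genes (8.02%). The differences below were fitted with the prefix as a term, so they can depart from the plain difference of the array values given beside them. That term is shared by all ages, so a fitted difference can also lie outside the differences within each prefix at 6 months. In bulk tissue, fewer cells of a type and less RNA per cell cannot be told apart.

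Hsd11b2, the gene that the transgene carries, was higher on every transgenic array than on every wild-type array, but no gene passed the adjusted threshold, and neither did Hsd11b2. Wild-type bone read 3.65, 3.68 and 3.60, and transgenic bone read 3.92, 4.67 and 5.01. The wild-type arrays lay close together and below the median gene, while the transgenic arrays were spread over more than 1 log2 unit and the lowest of them stood just above the wild-type range. The fitted difference was 0.92 ± 0.23 (SE, 3 arrays of each genotype), or 1.89-fold, with an unadjusted p of 0.000742 and an adjusted p of 0.9996 by limma. Within the prefix HEN513 the difference was 0.61, and within HEN753 it was 1.39. Transgenic replicate 1 had the least Hsd11b2 of the transgenic arrays and the lowest osteoblast and osteocyte marker levels of the 6 arrays, as described below. Without that array the difference was 1.19, with an adjusted p of 0.24, and without transgenic replicate 3 it was 0.57. At 3, 12 and 18 months the difference was 1.48, 0.99 and 1.21, and no array of either genotype overlapped at any of these ages. The 6 month difference minus the mean of the other ages was -0.31 (unadjusted p = 0.262), and did not pass the test.

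**Figure D1:**
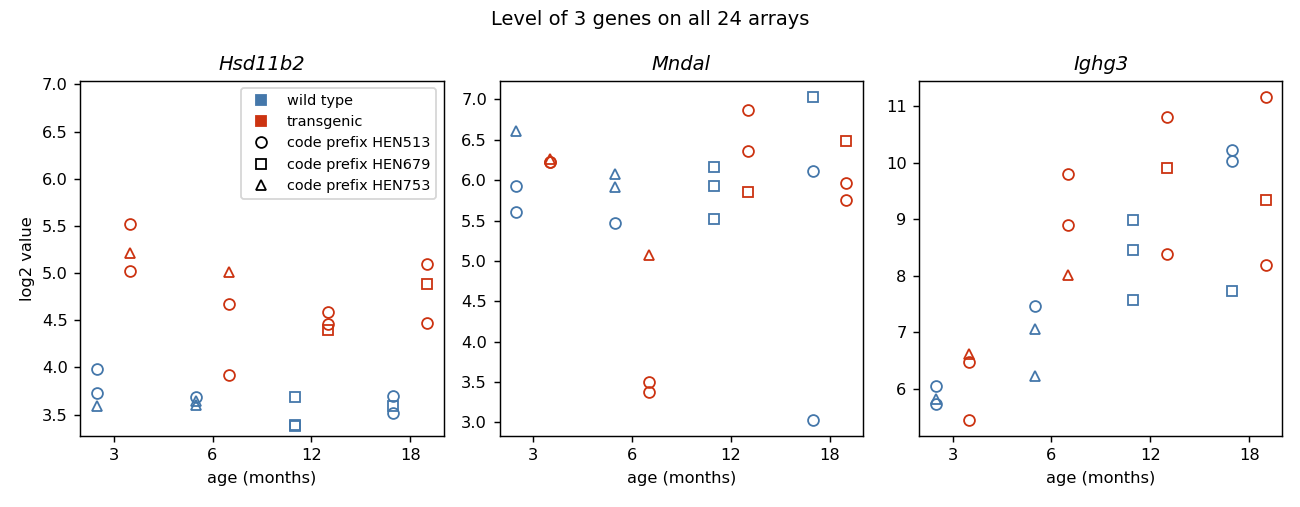
Log2 value (y axis) of Hsd11b2, Mndal and Ighg3 on each of the 24 arrays by age in months (x axis); each point is 1 array, colour gives the genotype and shape the code prefix. At 6 months the transgenic arrays of Hsd11b2 run from 3.92 to 5.01 above wild-type arrays of 3.60 to 3.68, 3 of the 24 arrays of Mndal sit at or below 3.50, and Ighg3 is higher at 12 and 18 months than at 3 months.

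Over the whole array no gene was called at 6 months. Of 22180 genes, 0 (0%) had an adjusted p under 0.05, and the lowest adjusted p was 0.322, for an olfactory receptor gene. At an unadjusted p under 0.05 there were 831 genes (3.75%), of which 436 (1.97%) were higher and 395 (1.78%) lower in transgenic bone. Arrays of the genotypes did not overlap for 963 genes (4.34%) in the higher direction and for 815 genes (3.67%) in the lower. The genes named below were picked for a low p or a large difference among those whose arrays did not overlap, or belong to fixed lists, and each had an adjusted p of 0.9996, so none of them passed the test.

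Genes were ranked by p among those whose arrays did not overlap and whose mean in the higher genotype lay above the median gene. A gene could so enter through 1 genotype alone, as Hsd11b2, Mafa, Zfp382 and, on the lower side, Fndc9 did. Their means in the other genotype were 3.64, 3.67, 4.205 and 3.82, below the median gene. Over all 24 arrays the means of Hsd11b2, Mafa and Fndc9 were 4.20, 3.95 and 4.32. The 10 of lowest p on the higher side held regulators of transcription, a ribosome factor and a chaperone partner of steroid receptors. After Hsd11b2 came Tma16, a factor in ribosome assembly, at 4.31, 4.46 and 4.46 in wild type and 5.21, 5.15 and 4.83 in transgenic bone, a fitted difference of 0.60 ± 0.16. Ncoa5, a coregulator of nuclear receptors, read 6.30, 6.53 and 6.62 in wild type and 6.85, 6.93 and 6.97 in transgenic bone, a difference of 0.44 ± 0.13. Its transgenic arrays ranged over 0.12 and its wild-type arrays over 0.33. The difference was 0.36 within HEN513 and 0.51 within HEN753. For a gene chosen because its arrays did not overlap, both of these have the same sign by the choice. Fkbpl, an FKBP-like protein that joins HSP90 complexes of steroid receptors, read 4.79, 4.53 and 4.60 against 5.25, 4.94 and 5.30, a difference of 0.70 ± 0.21. Mafa, a transcription factor best known for driving insulin in pancreatic beta cells, read 3.81, 3.92 and 3.27 against 4.83, 4.50 and 4.42, a difference of 0.95 ± 0.27. Fv1, which restricts retroviruses and derives from a retroviral gag gene, read 4.33, 4.62 and 4.91 against 5.38, 5.59 and 5.03, a difference of 0.72 ± 0.21. The zinc finger genes Zbtb37, Zfp382 and Zfp799 differed by 0.50, 0.75 and 0.62, and Rab33b, a small GTPase of the Golgi, by 0.39. Zfp382 was uneven, at 1.30 within HEN513 and 0.29 within HEN753, and its wild-type replicate 2 read 3.67 beside 4.53 and 4.41 on the other wild-type arrays.

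On the lower side the gene of lowest p was Plekho1, also called CKIP-1, which partners the ubiquitin ligase Smurf1 and is known as a brake on bone formation. Plekho1 read 7.43, 7.55 and 7.42 in wild-type and 7.29, 7.08 and 6.93 in transgenic bone, a fitted difference of -0.42 ± 0.12 (unadjusted p = 0.00231). Its wild-type arrays ranged over 0.13 and its transgenic arrays over 0.35, and the gap between the genotypes was 0.13. The difference was -0.37 within HEN513 and -0.49 within HEN753, of the same sign by the choice of genes without overlap. Erf, a repressor of ETS target genes controlled by ERK, read 5.27, 5.25 and 5.22 against 4.26, 4.58 and 4.68, a difference of -0.72 ± 0.23. The gap between the lowest wild-type and the highest transgenic array of Erf was 0.53, beside a range of 0.056 in wild-type and 0.42 in transgenic bone. A gap was a condition of the choice. Kcna2, a voltage-gated potassium channel, also differed by -0.72 ± 0.22, at 5.25, 5.52 and 5.09 against 4.30, 4.42 and 4.93. Fem1a, a substrate receptor of a cullin ubiquitin ligase, read 6.75, 7.11 and 6.64 against 6.48, 6.14 and 6.46, a difference of -0.51 ± 0.15. Acd, a subunit of the shelterin complex at telomeres, read 6.76, 6.65 and 6.68 against 6.38, 6.25 and 6.31, a difference of -0.44 ± 0.14. Its arrays were tight in both genotypes. Tceanc, Mospd3, Fndc9, Zdhhc12 and Ahdc1 differed by -0.63, -0.60, -0.60, -0.38 and -0.54, of which Zdhhc12 is a palmitoyltransferase and Ahdc1 carries an AT-hook that binds DNA.

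**Figure D2:**
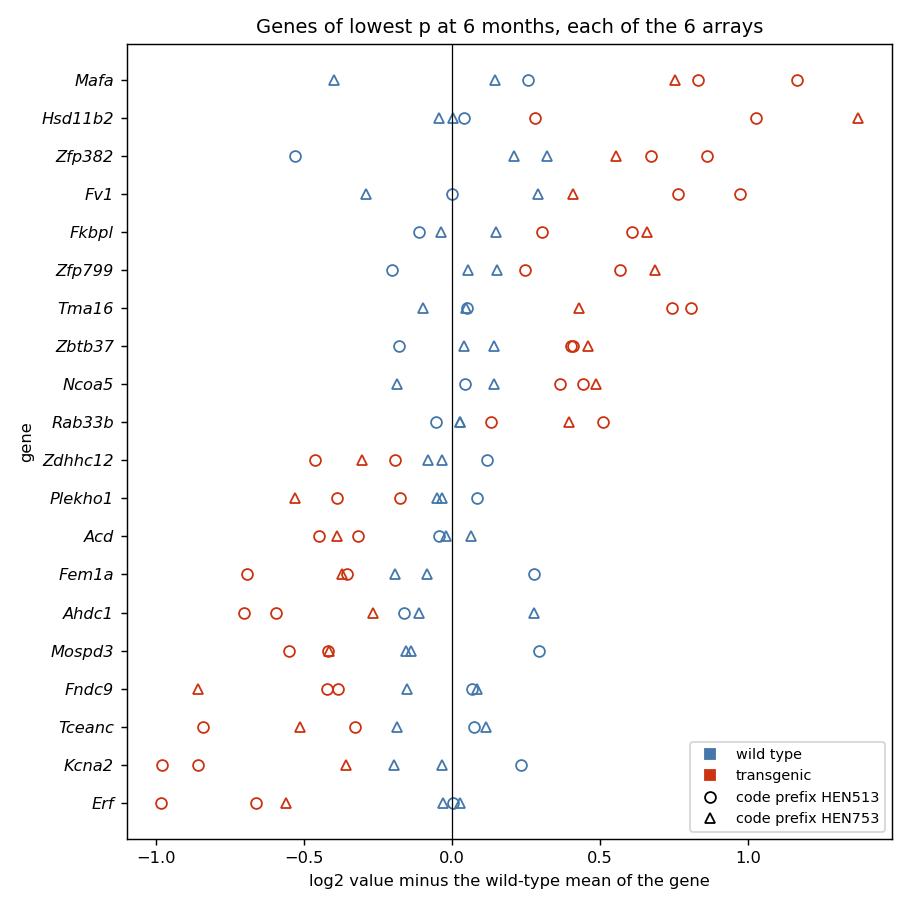
Log2 value of each of the 6 arrays minus the wild-type mean of the gene (x axis) for the 10 genes of lowest p in each direction (y axis); blue is wild type, red is transgenic, circles are prefix HEN513 and triangles HEN753. The genotypes do not overlap for any of the 20 genes, which is how they were chosen, and the wild-type arrays of Erf lie within 0.06 of each other while those of Mafa and Zfp382 are wide.

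Under the same limits on overlap and level, the genes of largest difference with an unadjusted p under 0.05 were led by an antibody gene on the higher side and an interferon-inducible gene on the lower. Ighg3, the constant region of the IgG3 heavy chain that plasma cells secrete, read 6.22, 7.46 and 7.06 in wild type and 9.80, 8.90 and 8.02 in transgenic bone, a difference of 1.86 ± 0.75, or 3.63-fold. The lowest transgenic array stood 0.55 above the highest wild-type array. Its level varied with age as well, from 5.86 ± 0.16 (SD, 3 arrays) in wild-type bone at 3 months to 9.33 ± 1.39 at 18 months. A second, dimmer row of Ighg3 overlapped between the genotypes, at 5.42, 7.22 and 4.30 against 7.32, 5.31 and 4.52. Ighm, the IgM heavy chain, chosen after its values were seen, read 11.3, 11.1 and 11.7 against 12.8, 11.6 and 12.2, a difference of 0.93 ± 0.41. Immunoglobulin constant regions resemble each other, and how far probes are shared between them was not tested.

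Mndal, a member of the interferon-inducible p200 family that senses DNA, had the largest difference on the lower side, at 5.92, 5.46 and 6.08 in wild type and 3.37, 3.50 and 5.08 in transgenic bone. The fitted difference was -1.58 ± 0.62, or 2.99-fold lower. Over the 24 arrays Mndal divided into a group of 3 arrays between 3.03 and 3.50 and a group of 21 arrays between 5.08 and 7.03. The 3 low arrays were transgenic replicates 1 and 2 at 6 months and wild-type replicate 3 at 18 months, so a low value was not limited to transgenic bone. All 3 low arrays carried the prefix HEN513, as did 10 of the 21 others. Other p200 genes, chosen after their values were seen, differed in direction. Ifi205 read 6.14, 5.845 and 6.38 against 4.13, 5.31 and 6.115, a difference of -0.74 ± 0.58. As for Mndal, transgenic replicates 1 and 2 of Ifi205 lay below every wild-type array, but transgenic replicate 3 was among the wild-type arrays. Ifi204 differed by 0.43 ± 0.33 and Ifi202b by 0.58 ± 0.36, on the higher side. These genes are near copies of each other, and how their probes divide the signal was not tested.

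Cyp26b1, which breaks down retinoic acid, read 5.33, 3.95 and 4.25 in wild type and 2.84, 3.26 and 3.76 in transgenic bone, a difference of -1.04 ± 0.36. The difference was -0.90 within HEN513 and -1.03 within HEN753. Both had to be negative, since only genes without overlap were taken. Each rests on a single array of 1 genotype. Egfl6, a secreted EGF-domain protein of the matrix, read 4.64, 4.50 and 4.74 against 3.01, 3.70 and 4.41, a difference of -0.77 ± 0.33. On the higher side stood Trim43c, a TRIM gene of the early embryo family, by 1.18 ± 0.50, and Myl6, a non-muscle myosin light chain, by 0.93 ± 0.43. Over all 24 arrays the means of Trim43c, Cyp26b1 and Egfl6 were 3.69, 3.82 and 4.24, below the median gene, and these genes passed the limit on level through 1 genotype. Myl6, with a wild-type mean of 4.24, and Mndal, with a transgenic mean of 3.98, also passed it through 1 genotype.

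The genes that make, move and read glucocorticoids were described next. Of 14 listed genes 12 were measured, 8 above and 4 below 0, with a median of 0.12 beside 0.01 over all genes; 1 member, Hsd11b2, had an unadjusted p under 0.05. Over this list the mean per array was 5.54, 5.62 and 5.60 in wild type and 5.65, 5.85 and 5.76 in transgenic bone. In no other list of the 32 described here were the array means free of overlap between the genotypes. That is 1 list of 32, beside 8.02% of single genes without overlap, and the list holds Hsd11b2 itself. Without Hsd11b2 the means were 5.72, 5.80 and 5.78 against 5.81, 5.96 and 5.82, which still did not overlap but by a margin of 0.0081. Nr3c1, the glucocorticoid receptor, read 7.36, 7.50 and 7.55 against 7.76, 7.70 and 7.58, a difference of 0.19 ± 0.12. Nr3c2, the mineralocorticoid receptor that binds the same hormone, read 4.47, 4.60 and 4.55 against 4.00, 4.39 and 4.47, a difference of -0.12 ± 0.23. The arrays of both receptors did not overlap, in opposite directions, and the gaps were 0.03 and 0.0044. Hsd11b1, the reactivating enzyme, read 5.73, 5.77 and 5.64 against 6.39, 6.00 and 5.54, a difference of 0.18 ± 0.21, and overlapped. H6pd, which supplies the cofactor to that enzyme and was chosen after its values were seen, differed by 0.26 ± 0.14.

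The 22 genes known to answer glucocorticoids showed no common direction, with 9 above and 13 below 0 and a median of -0.04. Fkbp5, a chaperone that the receptor induces as a brake on itself, read 6.01, 6.24 and 6.06 in wild-type and 6.40, 6.13 and 5.66 in transgenic bone, a difference of -0.06 ± 0.21. Tsc22d3, which encodes GILZ, a mediator of the hormone's anti-inflammatory action, read 4.46, 4.25 and 4.38 against 4.51, 4.74 and 4.33, a difference of 0.18 ± 0.20. The genotypes overlapped for both. Per1, a clock gene with a receptor-driven promoter, read 7.69, 7.13 and 7.19 against 6.82, 6.61 and 6.88, a difference of -0.48 ± 0.32, and Fam107a read 4.69, 4.47 and 4.21 against 3.40, 4.05 and 4.05, a difference of -0.45 ± 0.22. These were the 2 members whose arrays did not overlap (9.09%, beside 8.02% of all genes), with unadjusted p of 0.151 and 0.0587. Ddit4, a stress-induced inhibitor of mTORC1, had the lowest value of the list, -0.68 ± 0.39. Cebpd, a transcription factor of inflammation and fat cell formation, was the only member with an unadjusted p under 0.05, at 4.62, 5.12 and 5.04 against 5.77, 5.79 and 5.08, a difference of 0.57 ± 0.19 on the higher side. Sgk1, a kinase that the receptor induces, read 6.00, 5.53 and 5.71 against 5.86, 6.35 and 5.77, a difference of 0.27 ± 0.18. Fam107a, Ddit4 and Sgk1 were chosen after their values were seen.

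The glucocorticoid receptor is known to bind pairs of the 6-base element AGAACA facing each other across 3 bases. Windows of 300 bases, from 250 before to 50 after each start, were read from RefSeq's promoters on GRCm38.p6. They were searched on both strands for AGAACA and for the full pair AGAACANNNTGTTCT, and each full pair also counts as matches of the shorter element. The short element stood in 6233 of 32851 windows (19.0%) and in 6 of the 30 windows of the listed response genes (20%), of which 18 genes had a window. The matching windows of response genes belonged to Sgk1, Tsc22d3 and Fam107a alone. Those of Fam107a nearly coincide and hold the same matches, so the share counts windows and not separate genes. The full pair stood in 3 of all windows, and 1 of these belongs to Sgk1. Windows of Sgk1 and Fam107a are shown because they hold the most matches among the response genes and because their genes lay on opposite sides of 0. Capitals mark AGAACA on either strand. The Sgk1 window is chr10:21993640-21993939 on the plus strand and the Fam107a window is chr14:8309728-8310027 on the minus strand.
Sgk1: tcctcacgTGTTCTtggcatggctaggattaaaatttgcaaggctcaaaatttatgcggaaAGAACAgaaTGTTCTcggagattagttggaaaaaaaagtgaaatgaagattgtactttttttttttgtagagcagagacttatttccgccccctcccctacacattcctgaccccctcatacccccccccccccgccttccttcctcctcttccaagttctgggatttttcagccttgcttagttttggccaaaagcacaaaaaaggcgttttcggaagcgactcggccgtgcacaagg
Fam107a: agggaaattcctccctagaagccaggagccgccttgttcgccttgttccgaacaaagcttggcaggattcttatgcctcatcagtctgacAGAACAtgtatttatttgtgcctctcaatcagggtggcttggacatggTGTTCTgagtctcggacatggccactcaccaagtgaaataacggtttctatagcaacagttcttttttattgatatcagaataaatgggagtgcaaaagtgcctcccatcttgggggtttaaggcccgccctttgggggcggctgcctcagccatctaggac
The match is a description of the letters and not of binding. The share of windows with the short element among the response genes was close to that among all windows.

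The osteoblast lineage, where the transgene acts, had lower fitted values in transgenic bone, but its levels followed the code prefix more closely than the genotype. Of 19 osteoblast markers 14 were measured, 2 above and 12 below 0, with a median of -0.37; 0 had an unadjusted p under 0.05, and Runx2 was not analysed here. The mean per array was 8.78, 7.66 and 8.19 in wild-type and 7.13, 7.85 and 8.47 in transgenic bone. All 3 arrays of HEN753, of both genotypes, lay above all 3 arrays of HEN513. Within HEN513 the median difference was -0.22 and within HEN753 it was -0.02, and the fitted median was -0.11 without transgenic replicate 1, the lowest array, and -0.68 without transgenic replicate 3. Col1a1, which with Col1a2 forms the main collagen of bone, read 12.5, 11.9 and 12.0 against 10.95, 11.9 and 12.2, a difference of -0.42 ± 0.36. Its level was far above the median gene on every array. Alpl, the phosphatase of mineralising cells, read 9.50, 8.42 and 9.01 against 7.80, 8.55 and 9.07, a difference of -0.34 ± 0.37. Sp7, the osteoblast transcription factor osterix, differed by -0.44 ± 0.43, Ibsp, a matrix protein of mineralising bone, by -0.47 ± 0.33, and Pth1r, the receptor of parathyroid hormone, by -0.58 ± 0.35. Bglap, which encodes osteocalcin, stood on the other side at 0.16 ± 0.53, with wild type at 5.74, 4.63 and 4.73 and transgenic bone at 5.14, 5.21 and 5.38. Bglap has near copies beside it in the mouse genome, and how probes divide between them was not tested.

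Osteocytes, the cells embedded in the matrix, gave the same picture. Of their 10 markers 2 were above and 8 below 0, with a median of -0.23 and 0 at an unadjusted p under 0.05. The list mean was 7.52, 6.56 and 7.22 in wild-type and 5.72, 6.46 and 7.39 in transgenic bone, again with the HEN753 arrays above the HEN513 arrays. Within HEN513 the median difference was -0.48 and within HEN753 it was 0.03. The median was 0.01 without transgenic replicate 1 and -0.55 without transgenic replicate 3, so its sign turned on which array was left out. Sost, the Wnt inhibitor sclerostin, read 9.51, 8.47 and 8.93 against 7.37, 7.60 and 9.04, a difference of -0.52 ± 0.33. Mepe, a matrix phosphoglycoprotein, followed it at -0.52 ± 0.33 and Dmp1, which regulates phosphate and mineral, at -0.55 ± 0.40. For all 3 genes transgenic replicates 1 and 2 were below every wild-type array, and transgenic replicate 3 was within the wild-type range. Fgf23, the phosphate hormone of osteocytes, was well below the median gene at 2.64, 2.52 and 3.09 against 1.77, 2.14 and 2.71.

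Fitted medians of matrix and growth plate genes lay on the same side of 0, but those within the prefixes did not. Of 20 measured genes of collagen and matrix assembly, 3 were above and 17 below 0, with a median of -0.22; 1 member (5%, beside 8.02% of all genes), Col15a1, had arrays that did not overlap, with a difference of -0.51 ± 0.34. The median was -0.59 without transgenic replicate 3, 0.07 without transgenic replicate 1 and 0.02 without wild-type replicate 1. Loxl1, a collagen crosslinking enzyme, had a difference of -0.43 ± 0.26. Of 16 chondrocyte markers 4 were above and 12 below 0, with a median of -0.34. Col2a1, the cartilage collagen, read 8.97, 8.32 and 7.76 against 7.21, 8.39 and 7.63, and Ihh, a signal of growth plate cells, 3.92, 2.89 and 3.27 against 2.45, 3.04 and 3.02. The chondrocyte median was -1.002 without transgenic replicate 3 and -0.07 without transgenic replicate 1. Within HEN513 the collagen and chondrocyte medians were -0.15 and -0.06, and within HEN753 they were 0.05 and 0.06.

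**Figure D3:**
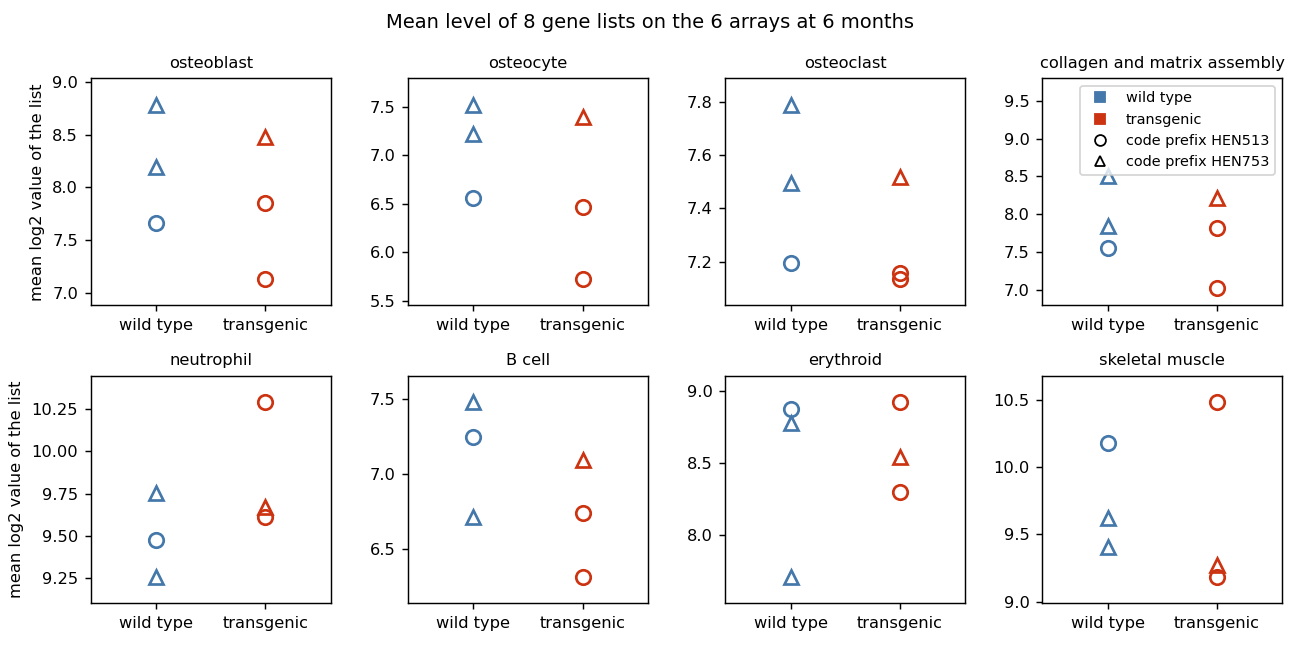
Mean log2 value of 8 gene lists (y axis of each panel, with its own range) on the 6 arrays at 6 months by genotype (x axis); each point is 1 array, circles are prefix HEN513 and triangles HEN753. In the osteoblast, osteocyte, osteoclast and collagen panels every triangle lies above every circle, whichever the genotype, while transgenic replicate 1 has the highest neutrophil mean at 10.3.

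This order by prefix was common. For 12 of the 32 lists the array means did not overlap between the prefixes, 11 with HEN753 higher and oxidative phosphorylation with HEN753 lower, against the 1 list that did not overlap between the genotypes. The 11 lists were those of osteoblasts, osteocytes, osteoclasts and their regulators, collagen, Wnt and BMP signalling, stromal cells, endothelium, endocrine hormones and early B cells. Pairs of arrays with the same prefix correlated at a median of 0.987 and pairs with different prefixes at 0.982, beside 0.982 for pairs of the same genotype and 0.984 for pairs of different genotype. The part of the prefix in any single result was not tested beyond the fitted term and the values within prefixes.

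Osteoclasts, which resorb bone, had 15 markers measured, 3 above and 12 below 0, with a median of -0.12 and 0 at an unadjusted p under 0.05. The median was -0.08 within HEN513 and -0.04 within HEN753. Ctsk, the protease that digests bone collagen, read 9.78, 8.47 and 8.45 in wild-type and 8.06, 8.72 and 8.34 in transgenic bone, a difference of -0.49 ± 0.42. Wild-type replicate 1 stood more than 1 log2 unit above the other wild-type arrays of Ctsk. Acp5, the acid phosphatase TRAP, read 10.4, 9.48 and 10.3 against 9.41, 9.58 and 10.4, a difference of -0.14 ± 0.30. Calcr, the calcitonin receptor, differed by -0.41 ± 0.30. The 11 regulators of osteoclasts had 5 above and 6 below 0. Tnfsf11, the osteoclast-inducing ligand RANKL, read 4.77, 4.04 and 3.71 against 3.73, 3.32 and 3.99, a difference of -0.38 ± 0.37. Tnfrsf11b, its decoy receptor osteoprotegerin, read 6.62, 5.69 and 6.02 against 4.79, 6.30 and 7.01, a difference of 0.20 ± 0.41, and its transgenic arrays were spread over more than 2 log2 units. Il1b, an inflammatory cytokine that promotes resorption, read 5.96, 6.39 and 6.75 against 7.89, 7.29 and 6.56, a difference of 0.72 ± 0.24 with an unadjusted p of 0.00700. Its genotypes overlapped, since transgenic replicate 3 lay below wild-type replicate 3, and the difference was 1.20 within HEN513 and 0.20 within HEN753.

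Wnt and BMP signals direct the formation of osteoblasts. Of 26 measured Wnt genes 8 were above and 18 below 0, with a median of -0.12, and 1 had an unadjusted p under 0.05. That was the ligand Wnt4, at 5.45, 4.83 and 4.53 in wild-type and 4.69, 4.02 and 4.24 in transgenic bone, a difference of -0.74 ± 0.29 (unadjusted p = 0.0179). Of 23 BMP and TGF-beta genes 9 were above and 14 below 0, with a median of -0.11. Smad6, an inhibitor that BMP signalling induces, was the 1 member with an unadjusted p under 0.05, at 6.28, 5.77 and 6.16 against 4.998, 5.12 and 5.94, a difference of -0.63 ± 0.25. Transgenic replicates 1 and 2 were below every wild-type array of Smad6 and transgenic replicate 3 was among them. Their 6 month differences minus the mean of the other ages were -0.92 for Wnt4 and -1.01 for Smad6. Neither passed the test (adjusted p = 0.9992 for each by limma). At 3, 12 and 18 months Wnt4 differed by 0.20, 0.41 and -0.07 and Smad6 by 0.14, 0.84 and 0.15. Within HEN513 the medians of the Wnt and BMP lists were -0.055 and -0.058, and within HEN753 they were -0.055 and -0.057. These are smaller in size than the fitted medians.

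Genes of marrow cells were measured at high levels in the tissue, and their lists differed in direction. Flushing was described for the tibia, and the labels' protocols do not say it of the femur. Of 17 neutrophil genes 16 were above 0, with a median of 0.23, and 0 had an unadjusted p under 0.05. Their mean was 9.26, 9.47 and 9.76 in wild-type and 10.3, 9.61 and 9.67 in transgenic bone, so transgenic replicate 1 alone stood above the wild-type arrays. Without it the median was 0.13. Ltf, the granule protein lactoferrin, differed by 0.27 ± 0.16 and Ngp, another granule protein, by 0.22 ± 0.12, and the arrays of Ngp did not overlap. Lcn2, a protein of neutrophil granules that osteoblasts also secrete, read 11.1, 11.1 and 11.3 against 11.6, 11.1 and 11.2, a difference of 0.09 ± 0.15. Macrophage genes had 9 above and 6 below 0 and all 7 measured platelet genes were above 0, with medians of 0.14 and 0.19.

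B cell genes lay on the other side. All 10 measured B cell markers had a fitted difference below 0, with a median of -0.43, and none had an unadjusted p under 0.05. Within HEN513 the median difference was -0.79 and within HEN753 it was 0.02. The fitted median was -0.73 without transgenic replicate 3 and -0.25 without wild-type replicate 1. The mean was 7.48, 7.25 and 6.71 in wild-type and 6.74, 6.31 and 7.09 in transgenic bone, and the groups overlapped. Cd79a, the signalling chain of the B cell receptor, read 9.57, 9.33 and 8.70 against 8.69, 8.12 and 8.96, a difference of -0.60 ± 0.43. Its difference was -0.93 within HEN513 and -0.18 within HEN753. Early B cell genes had 2 above and 7 below 0, with a median of -0.60, which was the lowest of the 32 lists and was -0.23 without wild-type replicate 1 and -0.96 without wild-type replicate 2. Vpreb3, part of the precursor B cell stage, was the 1 member with an unadjusted p under 0.05, at 6.93, 6.07 and 5.81 against 5.06, 4.93 and 5.85, a difference of -0.99 ± 0.42. Igll1, the surrogate light chain, chosen after its values were seen, differed by -1.15. Plasma cell genes, a list without Ighg3 and Ighm, had 3 above and 6 below 0, and Jchain, which joins secreted antibody, differed by -0.05 ± 0.53. T and NK cell genes had 11 above and 4 below 0, and for Cd3g, a chain of the T cell receptor complex, the values were 4.86, 5.55 and 5.63 against 6.76, 6.07 and 6.04 with no overlap, a difference of 0.92 ± 0.45.

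Stromal, vessel, tendon and muscle lists had medians between -0.12 and 0.18. Of 12 stromal markers 4 were above and 8 below 0, with a median of -0.12. Within HEN513 that median was -0.02 and within HEN753 it was -0.04. Pdgfrb, a growth factor receptor of stromal cells and pericytes, differed by -0.19 ± 0.22. Endothelial genes had a median of -0.09 and tendon genes of -0.03, the latter 0.53 without transgenic replicate 1. Skeletal muscle genes had 12 above and 5 below 0 and a median of 0.18, which was 0.81 without transgenic replicate 3 and -0.25 without transgenic replicate 2. Their mean was 9.62, 10.2 and 9.41 in wild-type and 9.18, 10.5 and 9.27 in transgenic bone, so replicate 2 of each genotype carried the most muscle RNA. With the muscle mean as a covariate the osteoblast median was -0.37 as before. Skin and nerve genes had a mean of 3.58 to 3.83 on the 6 arrays, below the median gene. Erythroid genes had 6 of 8 above 0 and a mean that was lowest on wild-type replicate 1, at 7.71, beside 8.30 to 8.92 on the other arrays. That array had the highest osteoblast mean, and transgenic replicate 1 had the lowest osteoblast mean and the highest erythroid mean. The part of these marrow and bone shares in the genotype differences was not tested.

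Bone is also a source and a target of hormones of energy use. Of 17 measured genes 10 were above and 7 below 0, with a median of 0.09, and none had an unadjusted p under 0.05. Igf1r, the receptor of insulin-like growth factor, read 8.05, 8.27 and 8.15 in wild-type and 8.73, 8.46 and 8.30 in transgenic bone, a difference of 0.26 ± 0.13, and its arrays did not overlap. Of 20 adipocyte genes 7 were above and 13 below 0, with a median of -0.03. Lep, which encodes leptin, was far below the median gene at 1.53, 1.80 and 3.62 against 1.77, 1.23 and 1.68, a difference of -0.58 ± 0.63 in which wild-type replicate 3 stood apart. Adipoq, which encodes adiponectin, read 7.02, 6.68 and 6.75 against 6.50, 6.69 and 6.49, a difference of -0.15 ± 0.27.

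Lists of general cell programmes had no called member. Medians were 0.05 over 21 cell cycle genes, -0.03 over 17 genes of oxidative phosphorylation, 0.02 over 15 clock genes and -0.05 over 13 genes of the unfolded protein and heat shock response. Interferon response genes had 10 of 12 above 0 and a median of 0.19, and the arrays of 3 of them did not overlap, all higher, beside 4.34% of all genes in that direction. For Oas2, a sensor of viral RNA, these were 4.40, 4.46 and 4.38 in wild-type and 5.37, 5.02 and 4.82 in transgenic bone, a difference of 0.58 ± 0.64 with an error estimated over all 24 arrays. Among 15 immediate early genes Fosb had the widest spread, at 3.48, 4.63 and 2.58 against 4.81, 2.91 and 6.47, and its difference was -0.77 within HEN513 and 3.44 within HEN753. Siglecf, an eosinophil receptor, differed by 0.44 ± 0.17 with overlap and an unadjusted p of 0.0192. Over the 32 lists, 11 medians were above and 21 below 0. Leaving out each of the 6 arrays in turn, 13 of the 32 medians kept their sign throughout and 19 did not, and 1, that of T and NK cells, stayed within 1.5 times its value. Of 453 list entries, 4 on the higher and 3 on the lower side had an unadjusted p under 0.05, which is 1.55% beside the 3.75% of all genes.

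**Figure D4:**
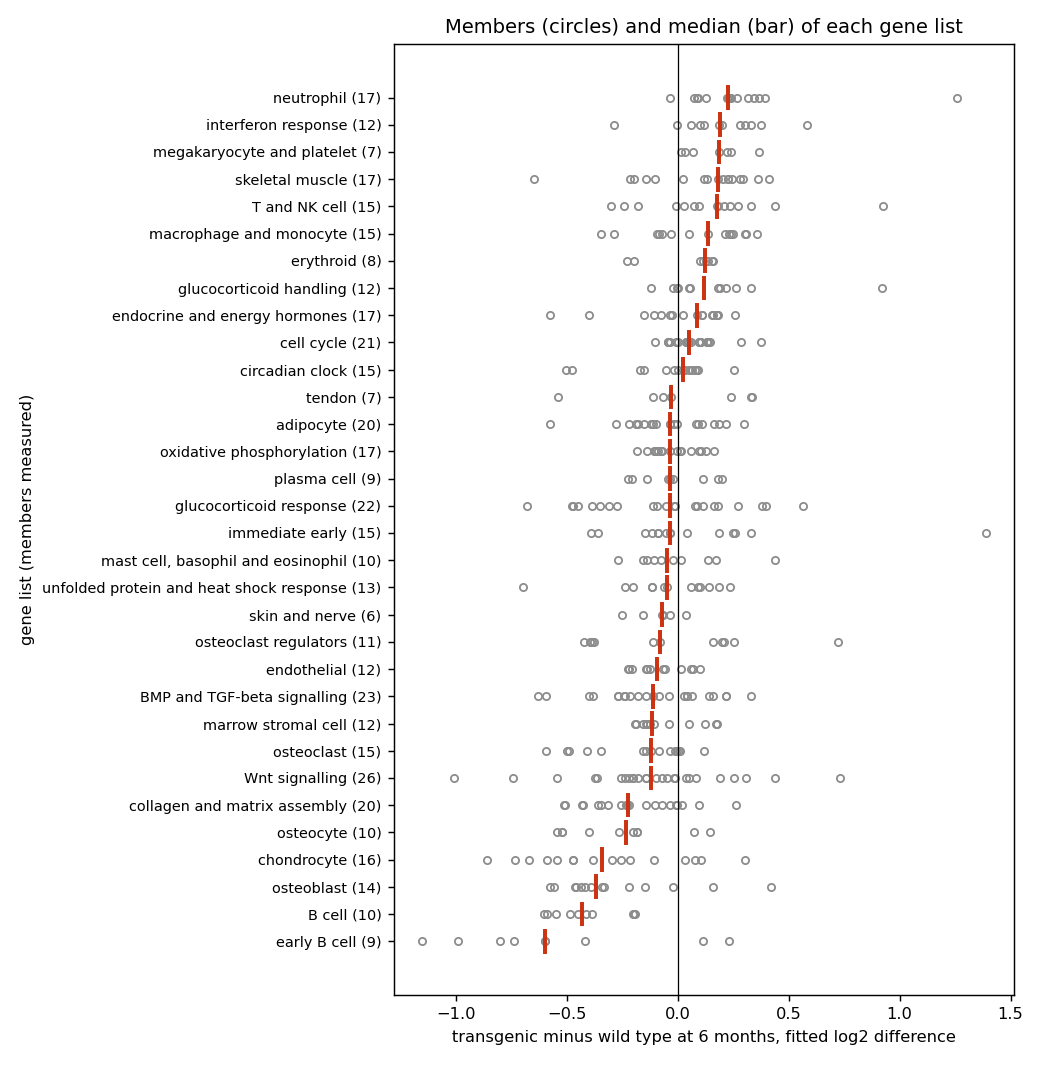
Fitted log2 difference, transgenic minus wild type at 6 months (x axis), for each member (circle) and the median (red bar) of the 32 gene lists (y axis, number of members measured in brackets). Medians run from -0.60 for early B cells to 0.23 for neutrophils, and none of the members passed the adjusted threshold.

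The 6 month differences were then set against those at 3, 12 and 18 months. These come from other arrays but from the same fit, with a shared prefix term and a shared estimate of each gene's spread. Of the 20 genes of lowest p, 14 had the same sign at 3 months, 10 at 12 months and 15 at 18 months, and 7 had it at all 3 ages. In the direction seen at 6 months, the median over the 20 genes was 0.10, -0.01 and 0.07 at 3, 12 and 18 months, beside 0.60 at 6 months. The genes were chosen by their 6 month values, which makes the 6 month median large by the choice. The contrast with the other ages so does not show that the differences belong to 6 months. Hsd11b2 was above 0.9 at every age, Tma16 was again 0.60 at 18 months, and Fkbpl was 0.27, 0.17 and 0.16. Mafa was -0.999 at 12 months, and Plekho1 was -0.06, 0.31 and -0.13. Of the 831 genes with an unadjusted p under 0.05 at 6 months, 47 (5.66%) were among the 872 at 3 months, 71 (8.54%) among the 1264 at 12 months and 87 (10.5%) among the 972 at 18 months. As shares of the lists at the other ages these overlaps were 5.39%, 5.62% and 8.95%, beside the 3.75% of all genes at 6 months. A gene with a small shared spread can have a low p at several ages, and the part of this in the overlaps was not tested. The sign was the same for 29 of the 47, 36 of the 71 and 65 of the 87 genes. The bone cell lists also differed between ages: the osteoblast median was 0.15, 0.60 and 0.05 at 3, 12 and 18 months beside -0.37 at 6 months, and the osteocyte median 0.14, 0.46 and 0.14 beside -0.23. At 12 months all wild-type arrays carried the prefix HEN679, so the fitted value there leans on the prefix term.

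**Figure D5:**
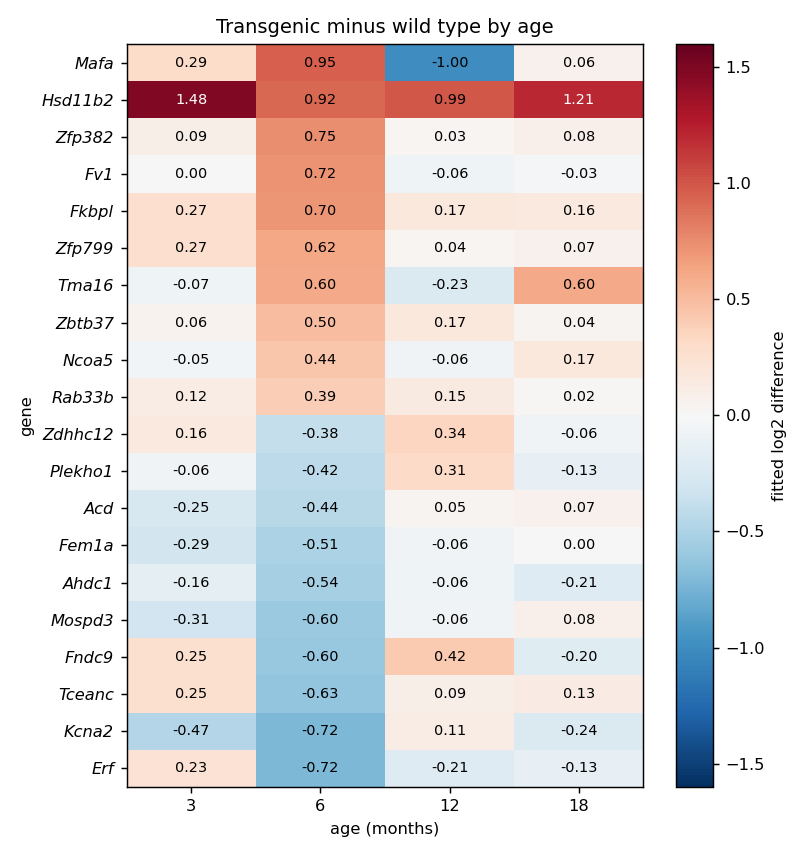
Fitted log2 difference, transgenic minus wild type, at 3, 6, 12 and 18 months (x axis) for the 20 genes of lowest p at 6 months (y axis); red is higher and blue lower in transgenic bone, with the value printed. Hsd11b2 is red at all 4 ages, from 0.92 to 1.48, and for the other 19 genes 53 of the 57 values at the other ages are smaller in size than 0.38, the smallest of their differences at 6 months. The genes were chosen by their 6 month values, so larger values at that age follow in part from the choice.

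In the test of the difference itself, the 6 month genotype difference minus the mean of the other ages, 0 genes (0%) had an adjusted p under 0.05, and 734 (3.31%) had an unadjusted p under 0.05. The lowest adjusted p was 0.495. Among genes whose 6 month arrays did not overlap, those of lowest p on the higher side were Mafa at 1.17, the leucine-rich repeat gene Lrrc14 at 0.67, Acsl6, a fatty acid CoA ligase, at 0.73, Nfyb, a subunit of the CCAAT-binding factor, at 0.59, and Pdp2, a phosphatase of pyruvate dehydrogenase, at 0.76. On the lower side were Cul7, a cullin scaffold, at -0.52, Zdhhc12 at -0.52, Crybb3, a lens crystallin, at -0.75, Tceanc at -0.79 and Plekho1 at -0.45. The limit on level was as before, and Mafa, Acsl6, Pdp2 and Crybb3 passed it through 1 genotype. Their 6 month means in the other genotype were 3.67, 4.115, 4.00 and 4.07. Plekho1 read 7.47 ± 0.07 in wild-type and 7.10 ± 0.18 in transgenic bone at 6 months (SD, 3 arrays each). Each of these 10 genes had an adjusted p of 0.9992 for the difference between ages.

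Rows of the array with no gene symbol or several were tested apart and not named. Of 17513 such rows 0 had an adjusted p under 0.05, and 758 (4.33%) had an unadjusted p under 0.05.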

How the data were processed

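Bone RNA of 24 samples was hybridised to Gene 2.1 ST arrays of Affymetrix for the mouse. The deposited table holds log2 values, 1 column per array, and the log base was inferred from the values. The only tool listed is MAS5, without a version, per the submitters' processing notes. How background and scaling were treated is not given in the sources used here. No detection call was used, and the number of arrays limits the precision.

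Rows were named by GEO's platform annotation. The brightest row stood for a gene. limma 3.58.1 in R 4.3.3 (lmFit, eBayes) was fitted over all 24 arrays with 8 groups and the code prefix as terms (14 residual degrees of freedom). Two-sided p-values were adjusted by Benjamini-Hochberg over all 22180 genes, with 0.05 as the threshold. The fit was tested on simulated data, with 50 genes changed at each size. It recovered 6 changes of 0.5 log2 units (12%), 33 of 1 unit (66%) and 49 of 2 units (98%), with 7 false calls. Most changes of 0.5 were so missed, and a count of 0 called genes says little about changes of that size. The simulated noise was drawn for each gene apart, and many large changes were planted together, which eases the adjusted threshold. In the data Hsd11b2 was not called at 0.92 at 6 months or at 1.48 at 3 months (adjusted p = 0.0598 by limma). The count of 0 so does not exclude changes of 1 or 2 units.

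Named were Hsd11b2; the 10 genes of lowest p and the 5 of largest difference in each direction among genes whose arrays did not overlap and whose mean in the higher genotype was above the median gene; fixed genes of glucocorticoid action and bone; up to 4 members of lowest p and the 2 brightest of a list; and 5 genes in each direction for the difference between ages. Predicted genes, receptor families and variable segments were counted only. Members and lists were chosen with earlier results of these data known. Alternatives changed the prefix term, arrays, scaling, filter, row choice, variance model and weights, added a muscle covariate or replicate block, or left out each array.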

Additional observations from a re-analysis of the deposited data

How the results depend on the processing

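Hsd11b2 was higher in transgenic bone in all 18 alternative fits, by 0.57 to 1.20, and passed the adjusted threshold in none. Both counts of called genes, for the 6 month difference and for its difference from the other ages, were 0 in every fit but 1. Leaving out each array in turn gave 0 to 1 genes. The 1 gene, without transgenic replicate 3, was 4930597G03Rik, named after its values were seen, at 1.33 (adjusted p = 0.0165) and 1.40 (adjusted p = 0.0334). The cause was not tested. Genes with an unadjusted p under 0.05 numbered 586 to 1101 over the fits. The rows without a single symbol gave 0 called when all rows were tested together.

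Correlations between the deviations of same-numbered arrays were -0.30, 0.16 and 0.15 at 6 months and above 0 for 9 of 12 pairs over all ages. Not every 6 month array correlated best with its own number, and the numbers were not taken to pair the samples, which the labels leave unsaid. With a replicate block 0 genes were called, Hsd11b2 differed by 1.20, and the medians on the other side of 0 included osteoblasts (0.091), osteocytes (0.16), collagen (0.32), chondrocytes (0.18) and Wnt (0.14). The block turned the sign of Alpl (0.10), Col1a1 (0.053), Ctsk (0.068), Acp5 (0.089), Lcn2 (-0.043), Pth1r (0.013), Ibsp (0.028) and Col1a2 (0.057).

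Of 84 named genes beside Hsd11b2, 14 changed sign in at least 1 fit, each with a difference that had not passed the test. Without the prefix term, with only the 6 arrays and genotype, and with the block but no prefix term, Tnfrsf11b was -0.076 and Jchain 0.10. With only the 6 arrays and the prefix, Acp5 was 0.0024. Leaving out 1 array at a time gave -0.23 to 0.16 for Nr3c2, -0.20 to 0.25 for Fkbp5, -0.26 to 0.51 for Bglap, -0.17 to 0.65 for Tnfrsf11b, -0.26 to 0.076 for Adipoq, -0.011 to 0.20 for Lcn2 and -0.31 to 0.38 for Jchain. The causes were not tested. Of the list medians, 569 of 575 alternative values moved by less than the spread between arrays. That spread is wide: the osteoblast list mean had an SD of 0.56 in wild-type and 0.67 in transgenic bone, beside a median of -0.37. A median can so change sign and still move by less. Leaving out each array in turn, 19 of the 32 medians did not keep their sign.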
